A study of Mus musculus with 4 samples.

Results

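The genes described here carry glutamate and GABA out of the space between cells and recycle them: the glutamate transporters Slc1a1, Slc1a2 and Slc1a3, the GABA transporter Slc6a11, glutamine synthetase (Glul), the glutamine transporters Slc38a1 and Slc38a3, and GABA transaminase (Abat). They were chosen by name, and all 8 were listed among the 20136 genes of the count tables. Their levels were followed across astrocytes, cells of the oligodendrocyte lineage and neuron subtypes in the BNST, the bed nucleus of stria terminalis, which lies in the forebrain and belongs to the extended amygdala. The tissue came from male wildtype C57BL/6J mice in a single group without treatment, with 4 Drop-seq libraries made from 6 pooled mice each, so n = 4 libraries and no mouse can be followed on its own. In Drop-seq each cell's RNA is caught on a barcoded bead, and a molecular identifier (UMI) lets each caught molecule be counted once. The study was about Pnoc neurons, which make prepronociceptin, the source of the neuropeptide nociceptin.

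At a glutamate synapse most of the released transmitter is taken up by astrocytes, which turn it into glutamine with glutamine synthetase, export the glutamine and so return it to neurons as a precursor of new glutamate and GABA. Released GABA is taken up by neurons and astrocytes and broken down by GABA transaminase. Uptake is driven by the sodium gradient that the sodium pump maintains, and most BNST neurons are GABAergic, so that the same cycle feeds an inhibitory transmitter there.

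Cells were sorted into classes by the UMIs of marker genes, none of them among the 8, and a gene's level (CPM) is its UMIs in every 1000000 UMIs of a class summed within a library. Of 10200 barcodes 4181 were kept as cells, with 837 to 1281 cells and 2119143 to 4842995 UMIs per library. They held 389 astrocytes, 126 oligodendrocyte precursors (OPC), 31 committed oligodendrocyte precursors (COP), 919 mature oligodendrocytes, 81 vascular cells and 2419 neurons, 2125 of them GABAergic and 82 glutamatergic. A level needed at least 10 cells in a library, a number that COP reached in 1 library and glutamatergic neurons in 3. Depth differed, with a median of 822 UMIs per astrocyte, 1069 per OPC, 1386 per oligodendrocyte and 3360 per neuron. The 11 astrocyte markers summed to between 11460 and 14790 CPM in astrocytes and to between 15.6 and 33.4 CPM in neurons, and the 11 oligodendrocyte markers to between 22130 and 29850 CPM in oligodendrocytes. These markers set the classes, so their sums are no independent measure of purity. The astrocyte check genes, astrocyte-rich genes used in no gate, summed to between 49380 and 61990 CPM in astrocytes. In neurons they summed to between 1012 and 1504 CPM. No barcode sequence was shared between libraries among the kept cells (0 of 4181). The labels call each library a batch, so library and batch cannot be told apart. All comparisons set classes side by side within libraries.

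The 8 genes lie on 7 chromosomes of GRCm38 in the GENCODE annotation: Slc1a1 at chr19:28835049-28913960, Slc1a2 at chr2:102658659-102790784, Slc1a3 at chr15:8634124-8710764, Slc6a11 at chr6:114131241-114249952, Glul at chr1:153899944-153909723, Slc38a1 at chr15:96571418-96642913, Slc38a3 at chr9:107650634-107669530 and Abat at chr16:8513429-8621568. Slc1a1 overlaps 4430402I18Rik and Slc1a2 overlaps Gm13872 on the opposite strand, and since the strand used in counting is not given in the sources used here, reads of each pair may not have been told apart. Gm13872 had 5 UMIs in astrocytes, and 4430402I18Rik had 37 UMIs in neurons.

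RefSeq promoter sequences were found for 5 of the 8 genes. Shown are the 100 bases before the RefSeq start of 3 genes that were all far higher in astrocytes than in neurons, because they differ widely in base composition. Each is written 5′ to 3′ on the strand of its gene, and capitals mark a match to TTGGC on the other strand.
Slc1a3 (chr15:8710808-8710907, GRCm38.p6, minus strand): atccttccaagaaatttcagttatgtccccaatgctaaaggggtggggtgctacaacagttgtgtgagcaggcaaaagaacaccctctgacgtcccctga
Slc6a11 (chr6:114131141-114131240, GRCm38.p6, plus strand): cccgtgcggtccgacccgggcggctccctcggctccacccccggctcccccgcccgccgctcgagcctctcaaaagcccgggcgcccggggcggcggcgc
Glul (chr1:153899829-153899928, GRCm38.p6, plus strand): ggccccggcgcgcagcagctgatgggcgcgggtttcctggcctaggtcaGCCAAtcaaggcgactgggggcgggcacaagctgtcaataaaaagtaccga

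G and C made up 49% of these bases in Slc1a3, 84% in Slc6a11 and 64% in Glul, beside a median of 55% over 32851 RefSeq promoters. Bases following the RefSeq start were found in a GENCODE transcript of the gene for Slc6a11 and Glul but not for Slc1a3. The dinucleotide CG occurred 1 time in Slc1a3, 17 times in Slc6a11 and 8 times in Glul. Both strands were searched for 3 further motifs, and the only match was the 1 to TTGGC in Glul, a motif held by 21.0% of all promoter windows of this length. The motif TATAAA was held by 5.56% of all windows and by none of these 3. Likewise none held ACAAAG, which 6.56% of all windows did. A match describes letters and shows no binding.

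Slc1a2 and Slc1a3, which encode the main astrocyte glutamate transporters GLT-1 and GLAST, were by far highest in astrocytes. Slc1a2 was at 5469, 7117, 9035 and 7204 CPM in the astrocytes of libraries 1 to 4, and at 62.2, 62.9, 108.7 and 110.6 CPM in neurons. Every astrocyte value lay above every neuron value, and in neurons libraries 3 and 4 were the higher pair. The means were 7206 ± 1460 CPM in astrocytes and 86.1 ± 27.2 CPM in neurons (SD, n = 4), an 83.7-fold ratio and a log2 fold change of 6.59 (SE 0.16, edgeR quasi-likelihood F = 1623). Slc1a3 was at 5020, 5347, 6841 and 6597 CPM in astrocytes and at 2.73, 0.998, 8.67 and 8.11 CPM in neurons. The mean neuron level, 5.13 ± 3.84 CPM, rested on 43 UMIs, and the log2 fold change between the classes was 10.42 (SE 0.21, edgeR F = 2506). A UMI of Slc1a2 and a UMI of Slc1a3 were each found in 376 of 389 astrocytes, and both were found in 367.

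Both transporters were also found in OPC, at lower levels. Slc1a2 was at 622.7, 921.4, 763 and 1066 CPM in the OPC of libraries 1 to 4, a mean of 843 ± 192 CPM (SD, n = 4). These values lay below all astrocyte and above all neuron values. Astrocytes were 8.55-fold higher than OPC (log2 fold change 3.56, SE 0.18, edgeR adjusted p = 7.65e-83), and OPC were 9.79-fold higher than neurons (log2 3.03, SE 0.23, adjusted p = 9.8e-39). Slc1a3 averaged 235 ± 49.9 CPM in OPC, so that astrocytes were 25.3-fold higher (log2 5.03, SE 0.22, adjusted p = 4.04e-112). Astrocyte markers were not absent from OPC: 7 of the 11 had UMIs, summing to between 191.6 and 414.6 CPM, while Aldh1l1, Gfap, Agt and Acsbg1 were at 0. Among 9 astrocyte-rich genes used in no gate, the OPC level ranged from 0.838% of the astrocyte level for Mlc1 to 16.2% for Ndrg2, and Slc1a2 at 11.4% and Slc1a3 at 4.16% fell inside that range. The part of astrocyte RNA in the OPC values was not tested.

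In mature oligodendrocytes Slc1a2 was below its neuron level and Slc1a3 above. Slc1a2 was at 7.55, 3.02, 49.1 and 37.8 CPM in oligodendrocytes, a mean of 24.4 ± 22.6 CPM, below the neurons of the same library in all 4 libraries (log2 fold change -1.51, SE 0.27, edgeR adjusted p = 6.14e-08). Libraries 3 and 4 were again the high pair, and with called doublets kept the difference no longer passed (adjusted p = 0.201). Slc1a3 was at 62.3, 96.7, 120.4 and 92.9 CPM, a mean of 93.1 ± 23.9 CPM, above neurons in all 4 libraries (log2 4.57, SE 0.28, adjusted p = 1.14e-60). Oligodendrocytes held 18.2 times the neuron level of Slc1a3 but 0.283 times that of Slc1a2. Slc1a3 was also lower in oligodendrocytes than in OPC in all 4 libraries (log2 -0.82, SE 0.34, adjusted p = 0.0318), but the call was lost without library 1 (0.223), without the library block (0.076), in DESeq2 (0.16) and under 5 further settings (0.0524 to 0.609). Slc1a2 in vascular cells was at 113.6, 0, 80.1 and 0 CPM, overlapping both oligodendrocytes and neurons, and rested on 7 UMIs.

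The share of cells with a UMI was compared after each cell was reduced to 500 UMIs. Slc1a2 was then found in 91.5% ± 3.27 of astrocytes, 30.8% ± 4.76 of OPC, 4.23% ± 1.62 of neurons and 1.08% ± 0.971 of oligodendrocytes (SD, n = 4 libraries). Without reduction the shares were 96.7%, 52.4%, 21.1% and 2.72%, and nearly all cells were deep enough to enter, 2410 of 2419 neurons and 125 of 126 OPC among them. Free RNA can place UMIs in cells that do not express a gene. Neurons held Slc1a2 at 1.12% of its astrocyte level, Slc6a11 at 1.4% and Glul at 1.81%. Of the 9 astrocyte-rich genes used in no gate, Apoe stood at 0.0912%, Slc7a10 at 0.132%, Mlc1 at 0.262% and Htra1 at 0.403%. Ndrg2 stood at 0.793% and Mt2 at 0.812%. Slc1a3 at 0.0756% and Slc38a3 at 0.0776% were below all of these, and the part of free RNA in the neuron values was not tested. Of the same 9 genes, Aldoc, Cst3 and Clu had 5.57%, 3.69% and 9.69% of their astrocyte level in neurons, so a single background share could not be set.

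Slc1a1 encodes EAAC1, the glutamate transporter classed as neuronal, and its distribution differed from that of the other 2 transporters. No Slc1a1 UMI was found in 389 astrocytes, which allows up to 8.37 CPM at 3 counts. In neurons it was at 36.2, 28.9, 51.4 and 48.2 CPM (41.2 ± 10.4, SD, n = 4), at least 4.74-fold higher than that limit (edgeR adjusted p = 1.77e-05, or 0.0564 with a minimum of 800 genes per cell). In OPC it was at 167.7, 230.3, 209.8 and 144 CPM (188 ± 39.2). All 4 OPC values exceeded all neuron values, and the classes differed 4.57-fold (log2 1.94, SE 0.40, edgeR adjusted p = 3.75e-06). Oligodendrocytes had 15.1 ± 12.7 CPM, lower than neurons (log2 -1.05, SE 0.34, adjusted p = 0.00301), but the call was lost without library 3 (adjusted p = 0.0899), with a minimum of 800 genes per cell (0.104) and at a 5% mitochondrial limit (0.152). The call between oligodendrocytes and astrocytes (adjusted p = 0.00607) was lost without library 1 (0.0954) and with a minimum of 800 genes (0.191). Vascular cells ranged from 0 to 278.2 CPM on 7 UMIs and overlapped neurons, oligodendrocytes and OPC.

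**Figure D1:**
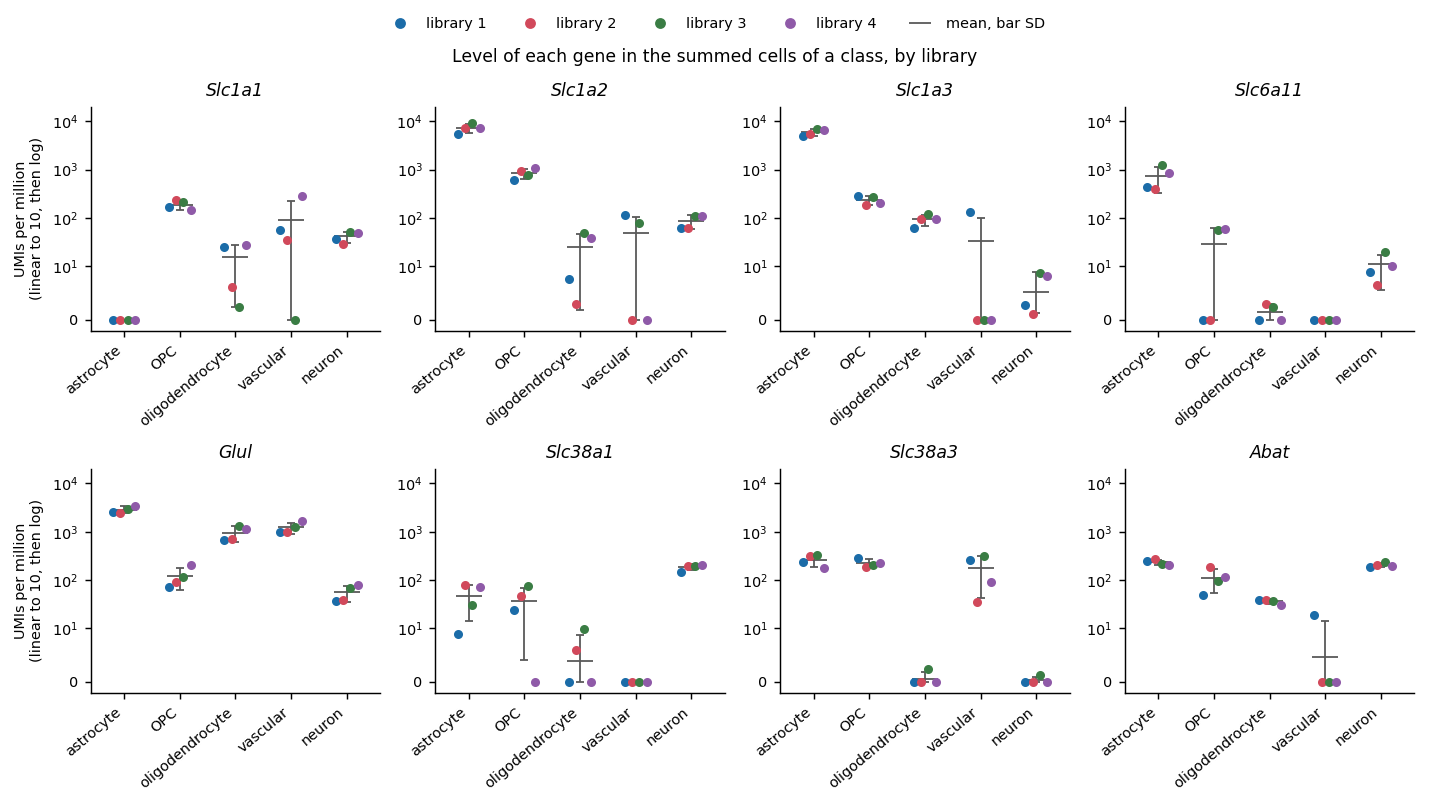
Level of each of the 8 genes in 5 classes, in UMIs per 1000000 UMIs of the class (CPM, linear up to 10 and logarithmic above), with 1 point per library and the mean with its SD over 4 libraries, the lower bar ending at 0. Slc1a2 and Slc1a3 are highest in astrocytes, Slc1a1 is at 0 there and has its highest mean in OPC, Slc38a1 is highest in neurons, and Slc38a3 is near 0 in oligodendrocytes and neurons.

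Along the oligodendrocyte lineage Slc1a1 was higher in OPC than in mature oligodendrocytes, 12.4-fold on the means. The fitted log2 fold change of oligodendrocytes minus OPC was -3.00 (SE 0.48, edgeR adjusted p = 3.54e-09). The 31 COP, cells defined by Bmp4, Gpr17, Neu4, Enpp6, Tmem163 and Rassf10, held 23 Slc1a1 UMIs in 12 cells, a pooled level of 430.8 CPM with a 95% Poisson interval from 273.1 to 646.4 CPM that covers counting error only. The pooled OPC level was 185.9 CPM (123.5 to 268.7). No test between them was made, since a single library had 10 COP. Mature oligodendrocytes were split by which of 2 marker pairs had more UMIs. The 111 cells with neither pair ahead held 13 Slc1a1 UMIs in 6 cells (179.9, 64.6, 0 and 85.6 CPM), the 572 cells with more Opalin and Il33 held 11, and the 236 cells with more Klk6 and Anln held 0, which allows up to 7.05 CPM. The cells with neither pair ahead carried COP markers at 186.1 to 1388 CPM, a range that encloses the 307.9 to 382.8 CPM of the Klk6 Anln cells, and were shallower, with a median of 1031 UMIs.

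Glul, which encodes the enzyme that makes glutamine from glutamate and ammonia, was low in OPC and COP and high in mature oligodendrocytes. It was at 71.9, 92.1, 114.4 and 201.6 CPM in OPC and at 669.9, 695.4, 1339 and 1128 CPM in oligodendrocytes. The groups did not overlap, and oligodendrocytes were 7.98-fold higher (log2 fold change 3.58, SE 0.29, edgeR adjusted p = 1.19e-33). COP had 5 UMIs, a pooled 93.7 CPM (30.4 to 218.6), an interval that holds the OPC mean. The oligodendrocytes with neither marker pair ahead averaged 1133 ± 485 CPM and so overlapped both kinds compared next. Within mature cells, Klk6 Anln oligodendrocytes had 1105, 1138, 1641 and 1574 CPM, above the 511.4, 546.4, 1042 and 933.6 CPM of Opalin Il33 oligodendrocytes. The ranges did not overlap, and the Klk6 Anln cells were higher in each of the 4 libraries by 1.8-fold on the means, a log2 fold change of 0.86 (SE 0.11, adjusted p = 4.73e-14). Libraries 3 and 4 were the higher pair in both kinds of cell. Of the 8 genes 2 could be tested between the oligodendrocyte kinds and 1 was called, where 11.2% of 2794 genes were called. Slc1a3, the other, had a log2 difference of 0.62 (SE 0.31, adjusted p = 0.229). Astrocyte check genes were lower in the Klk6 Anln cells, from 1151 to 1305 CPM in sum, than in the Opalin Il33 cells, from 1679 to 2858 CPM. The 11 astrocyte markers of the gate overlapped, from 0 to 43.5 CPM in Klk6 Anln and from 5.76 to 22.2 CPM in Opalin Il33 cells. The part of astrocyte RNA in these Glul values was not tested.

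**Figure D2:**
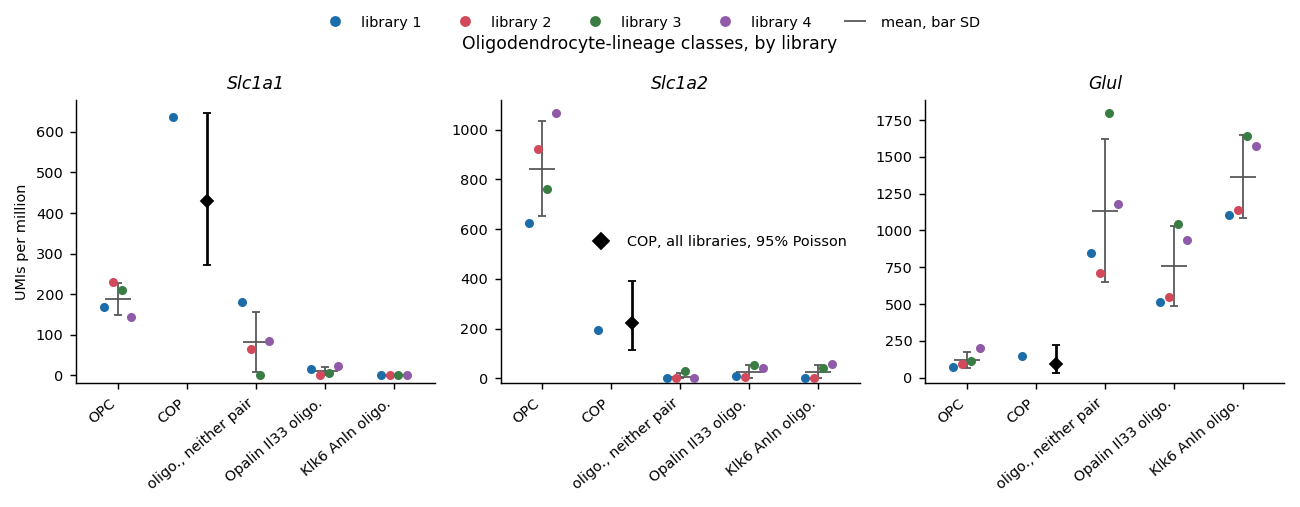
Levels of Slc1a1, Slc1a2 and Glul in CPM in 5 classes of the oligodendrocyte lineage, with 1 point per library with at least 10 cells and the mean with its SD; the black diamond is the COP level over all libraries with its 95% Poisson interval. Slc1a1 has 0 UMIs in Klk6 Anln oligodendrocytes and a pooled 430.8 CPM in COP, while Glul is lowest in OPC and COP and highest on average in Klk6 Anln oligodendrocytes.

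Glul was highest in astrocytes and stood above its neuron level in vascular cells and oligodendrocytes too. Astrocytes had 2559, 2454, 3018 and 3472 CPM, a mean of 2876 ± 467 CPM (SD, n = 4), and vascular cells had 984.3, 1007, 1281 and 1669 CPM. Vascular cells and oligodendrocytes overlapped in range, and neurons were far lower at 37.7, 37.9, 68.1 and 79.2 CPM. Astrocytes exceeded oligodendrocytes 3-fold (log2 1.46, SE 0.14, edgeR adjusted p = 5.07e-26) and neurons 51.6-fold (log2 5.92, SE 0.16, adjusted p = 2.96e-299). OPC and neurons overlapped (log2 0.88, SE 0.43, adjusted p = 0.0722), and this difference passed with RLE size factors (adjusted p = 0.0356) and in DESeq2 (0.0148). Oligodendrocytes had more cells (919 against 389) and more UMIs per cell (median 1386 against 822) than astrocytes. They held 45.8% of the 3186 Glul UMIs in kept cells and astrocytes 32%. Reduced to 500 UMIs, 71.9% ± 8.01 of astrocytes and 35.7% ± 8.12 of oligodendrocytes had a Glul UMI, beside 2.99% ± 1.27 of neurons.

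Slc6a11 encodes GAT-3, the GABA transporter found mainly on astrocytes. It was at 431.1, 400.4, 1241 and 853.5 CPM in astrocytes, with libraries 3 and 4 higher than libraries 1 and 2, a mean of 732 ± 398 CPM (SD, n = 4). Neurons had 8.93, 6.49, 19.4 and 10.01 CPM, 65.4-fold less on the means (log2 6.13, SE 0.23, edgeR adjusted p = 7.54e-153). OPC had 5 UMIs, in libraries 3 and 4 only, oligodendrocytes 2 and vascular cells 0, so that astrocytes were at least 25.6-fold above the vascular limit of 28.6 CPM. OPC and neurons overlapped, with a log2 difference of 1.17 (SE 0.81, adjusted p = 0.216). Oligodendrocytes were lower than OPC in 2 libraries and higher in 1. The call between oligodendrocytes and OPC (adjusted p = 0.00397) was lost without library 3 (0.0927) or library 4 (0.0631), which held all the OPC UMIs. It was also lost with a minimum of 800 genes per cell (0.226) and with called doublets kept (0.0812). Free RNA and a low neuronal level cannot be told apart for the 99 Slc6a11 UMIs in neurons.

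Slc38a1 and Slc38a3 encode the glutamine transporters SNAT1 and SNAT3, classed as the neuronal uptake and the glial release carriers, and they were high in different classes. Slc38a1 was at 148, 191.2, 196.1 and 205.1 CPM in neurons and at 8.98, 77.5, 29.8 and 72.3 CPM in astrocytes. All neuron values lay above all astrocyte values, and neurons were 3.93-fold higher (log2 fold change of astrocytes minus neurons -1.94, SE 0.34, edgeR adjusted p = 3.13e-08). Oligodendrocytes had 3.97 ± 4.83 CPM, 46.6-fold below neurons, and vascular cells had 0 UMIs, so that neurons were at least 6.19-fold above the limit of 28.6 CPM. Astrocytes and OPC overlapped (adjusted p = 0.69). The call between OPC and oligodendrocytes (adjusted p = 0.00984) rested on 6 UMIs in each class and was lost without library 3 (0.139).

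Slc38a3 was at 233.5, 310, 337.6 and 173.6 CPM in astrocytes and at 287.4, 184.3, 209.8 and 230.4 CPM in OPC. The ranges overlapped, and the difference did not pass (log2 0.61, 95% interval -0.11 to 1.33, edgeR adjusted p = 0.208). Neurons had 2 UMIs in 2419 cells and oligodendrocytes 1 in 919. OPC stood 683-fold above neurons on the means (log2 8.83, SE 0.63, adjusted p = 2.28e-43) and 371-fold above oligodendrocytes (log2 of oligodendrocytes minus OPC -7.60, SE 0.76, adjusted p = 2.33e-22), folds whose lower side rests on 1 or 2 UMIs. The OPC level was 86.8% of the astrocyte level, above the 0.838% to 16.2% of the 9 astrocyte-rich genes, and vascular cells had 178 ± 136 CPM on 20 UMIs.

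Abat, which encodes the mitochondrial enzyme that breaks GABA down, had overlapping levels in astrocytes and neurons. It was at 242.5, 271.2, 218.4 and 202.5 CPM in astrocytes and at 186.9, 207.1, 232.8 and 191.2 CPM in neurons. The ranges overlapped, astrocytes were higher in 3 of 4 libraries, and the difference did not pass (log2 0.38, 95% interval -0.02 to 0.78, edgeR adjusted p = 0.0836). The call changed with the setting. Abat passed with RLE size factors (log2 0.51, adjusted p = 0.0195), in DESeq2 (0.0329), with doublets kept (0.0364) and with a minimum of 200 genes (0.0487). Its sign turned with a minimum of 800 genes (-0.20, edgeR adjusted p = 0.745) and with no filter on low counts (-0.00459). The median log2 difference of all genes was -0.36 with TMM and -0.232 with RLE size factors. Oligodendrocytes were lower in all 4 libraries at 37.7, 39.3, 36.8 and 31.0 CPM, 5.65-fold below neurons (log2 -2.13, SE 0.20, adjusted p = 4.81e-26). OPC, at 111 ± 56.6 CPM on 15 UMIs, were below astrocytes (adjusted p = 0.000309, or 0.159 with a minimum of 800 genes per cell) and neurons (0.00158).

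Counted over the 8 genes, 5 were higher and 2 lower in astrocytes than in neurons, against 72.1% of 3618 genes called in either direction in that comparison, 30.3% higher and 41.7% lower. Between astrocytes and oligodendrocytes 7 were higher and 1 lower (55.0% of genes called, 26.0% higher and 29.0% lower), and between astrocytes and OPC 5 were higher and 1 lower (32.7%, 16.1% higher and 16.6% lower). Oligodendrocytes minus neurons gave 2 higher and 5 lower (77.2%, 33.8% higher and 43.4% lower), OPC minus neurons 4 higher and 2 lower (56.7%, 24.0% higher and 32.6% lower), and oligodendrocytes minus OPC 1 higher and 6 lower (49.4%, 24.7% higher and 24.7% lower). The shares of called genes were high throughout, so the counts alone do not set the 8 genes apart. The median log2 difference of the 8 was 6.02 for astrocytes minus neurons, beside -0.36 over all genes, 4.53 beside -0.03 for astrocytes minus oligodendrocytes, and 2.59 beside -0.03 for astrocytes minus OPC. These medians include the fitted value of Slc1a1, which has no UMI in astrocytes and so is no measure of size.

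**Figure D3:**
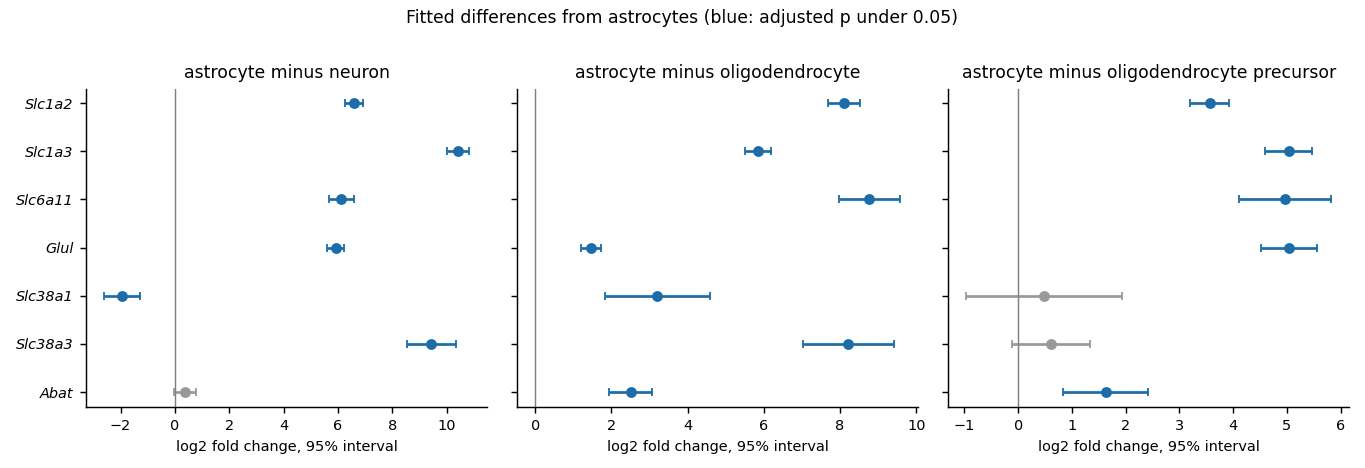
Fitted log2 fold changes of astrocytes minus neurons, oligodendrocytes or OPC with 95% intervals for 7 of the 8 genes, blue where the edgeR adjusted p was under 0.05; Slc1a1, at 0 UMIs in astrocytes, is not drawn. Slc1a3 has the largest difference from neurons at 10.42, and Slc38a1 and Slc38a3 overlap 0 against OPC.

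Other genes of the pathway were read from a list of 40, of which 21 had enough counts to be tested between these classes. Between astrocytes and neurons 13 were higher in astrocytes and 6 lower, beside 30.3% of all genes called higher and 41.7% lower, and the median log2 difference of the 21 was 2.08 beside -0.36 over all genes. Of the other glutamate carriers, 3 of 5 tested were higher in astrocytes, among them the cystine-glutamate exchanger Slc7a11 (log2 9.28, SE 0.33, edgeR adjusted p = 1.8e-170) and the mitochondrial glutamate carrier Slc25a18 (8.67, SE 0.56, adjusted p = 5.92e-52), while Slc25a22, its relative, was higher in neurons (-3.84, SE 0.55, adjusted p = 8.89e-12). The neutral amino acid transporter Slc1a4 was higher in astrocytes by 2.82 (SE 0.28, adjusted p = 1.3e-23).

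Of the glutamine carriers, 4 of 11 were tested, and Slc38a2, which encodes SNAT2, went against Slc38a3 between astrocytes and oligodendrocytes. It was at 281.2, 332.6, 420 and 447.1 CPM in oligodendrocytes and at 0, 12.9, 29.8 and 28.9 CPM in astrocytes (log2 of astrocytes minus oligodendrocytes -4.61, SE 0.37, edgeR adjusted p = 6.25e-34). Oligodendrocytes, in which Slc38a1 had 6 UMIs and Slc38a3 had 1, had the highest Slc38a2 mean of the 5 classes, 370.2 ± 76.9 CPM. Neurons had 49.1 ± 16.4 CPM. OPC, with Slc38a3 at a mean of 228 CPM, were also above astrocytes in Slc38a2 (log2 of astrocytes minus OPC -3.06, SE 0.595, edgeR adjusted p = 2.4e-06).

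Of the metabolic enzymes 4 of 6 tested were higher in astrocytes than in neurons and 2 lower, beside the same 30.3% and 41.7% of all genes. Glutamate dehydrogenase (Glud1) was higher by 2.85 (SE 0.16, edgeR adjusted p = 1.78e-66), the alanine transaminase Gpt2 by 2.86 (SE 0.32, adjusted p = 4.03e-18) and Aldh9a1 by 2.08 (SE 0.28, adjusted p = 7.88e-13). The aspartate transaminase Got1 was lower by 3.77 on the log2 scale (-3.77, SE 0.33, adjusted p = 3.32e-29), with 389.2 ± 33.9 CPM in neurons. Gpt2 was highest in OPC, at 646.7, 552.8, 324.3 and 518.4 CPM, above all astrocyte values (log2 of astrocytes minus OPC -1.40, SE 0.32, adjusted p = 6.02e-05). Of the genes that keep up the ion gradients, the potassium channel Kcnj10 (log2 7.67, SE 0.31, adjusted p = 3.38e-130) and Atp1b2 (adjusted p = 1.1e-113) were higher in astrocytes than in neurons. Kcnj10 was also above neurons in oligodendrocytes (log2 8.05, SE 0.211) and OPC (7.62, SE 0.392). It was slightly lower in astrocytes than in oligodendrocytes (-0.388, SE 0.175, edgeR adjusted p = 0.0492).

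Among GABAergic neurons, 10 subtypes named by their markers had enough cells in at least 3 libraries, and 3 of the 8 genes had enough counts to be tested across them. All 3 were called across subtypes, where 34.4% of 4120 genes were called: Slc38a1 (edgeR F = 5.51, adjusted p = 7.12e-05), Slc1a2 (F = 4.65, adjusted p = 0.000439) and Abat (F = 3.09, adjusted p = 0.0129). Without the library block, 1 of the 3 was called, with edgeR adjusted p of 0.0929 for Slc1a2 and 0.089 for Abat. With the stricter gate these were 0.0762 and 0.104. That gate left too few libraries for Lhx8 Rorb, Six3 and Slc17a8 neurons, so its test covered fewer subtypes and is not a like comparison. Abat was not called without library 2 (0.163) or library 3 (0.115).

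Slc38a1 was highest in Lhx8 Rorb neurons, named for 2 transcription factors, at 384.3, 248.9 and 541.4 CPM in libraries 1, 2 and 4. Its mean of 391.5 ± 146 CPM (SD, n = 3) compares with 184 ± 25.8 CPM over all GABAergic neurons, and the difference from the mean of the other subtypes was 1.11 (log2, SE 0.21, edgeR adjusted p = 9.04e-05), where 4.44% of genes were called higher. The adjusted p was 0.0532 without library 1, and library 3 had 6 such cells and was not used. The next highest means, 244.4 ± 67.6 CPM in Crh Wif1 neurons and 235.6 ± 108 CPM in Zic1 Zic4 neurons, overlapped it. Six3 neurons had the lowest mean of the tested subtypes at 131.8 ± 37.0 CPM, beside 136.4 ± 42.0 CPM in Ppp1r1b Crym neurons.

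Abat was lowest in neurons with the vesicular glutamate transporter Slc17a8, at 149.1, 70.5, 99.6 and 189.8 CPM, a mean of 127.3 ± 52.9 CPM (SD, n = 4). The difference from the other subtypes was -0.81 (log2, SE 0.22, edgeR adjusted p = 0.011), where 3.33% of genes were called lower. It rested on 42 UMIs in 73 cells, and the adjusted p was 0.184 without library 2 and 0.139 without library 3. The other 9 subtype means ran from 181.6 ± 17.0 CPM in Crh Wif1 neurons to 262.6 ± 65.8 CPM in Lhx8 Rorb neurons.

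Slc1a2 was higher in Tac2 Ebf1 neurons, at 85.3, 89.2, 121 and 203 CPM, than in the other subtypes (log2 0.80, SE 0.21, edgeR adjusted p = 0.0107), where 3.50% of genes were called higher. The call was lost without library 4 (adjusted p = 0.118), without the library block (0.362) and, among fewer subtypes, with the stricter gate (0.516). Six3 neurons had a like mean, 127.5 ± 33.5 CPM against 124.6 ± 54.6 CPM, and Tshz1 Foxp2 neurons had the lowest, 40.8 ± 37.9 CPM. Astrocyte check genes summed to between 1123 and 1811 CPM in Tac2 Ebf1 neurons and to between 1020 and 1516 CPM over all GABAergic neurons, and their part in the Slc1a2 values was not tested. Prkcd neurons, with at least 10 cells in 2 libraries, had 5 Slc1a2 UMIs in 36 cells and were not tested.

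**Figure D4:**
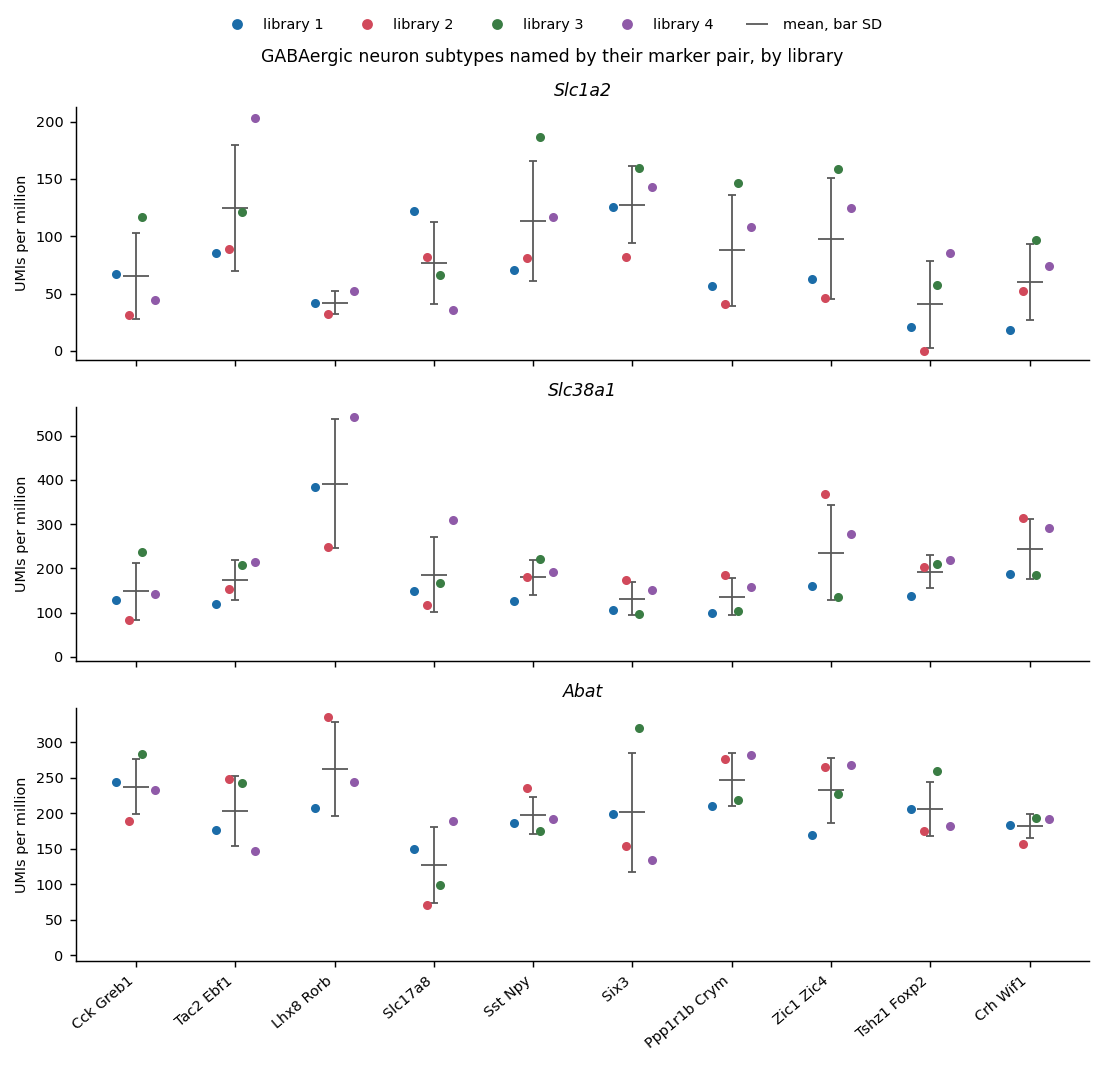
Levels of Slc1a2, Slc38a1 and Abat in CPM in 10 GABAergic neuron subtypes named by their markers, with 1 point per library with at least 10 cells and the mean with its SD. Slc38a1 stands highest in Lhx8 Rorb neurons (391.5 CPM on average, 3 libraries) and Abat lowest in Slc17a8 neurons (127.3 CPM).

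GABAergic and glutamatergic neurons could be compared in 3 libraries with 46, 17 and 12 glutamatergic cells. None of the 6 genes tested was called (0 of 6 by edgeR, 0 at an unadjusted p under 0.05 and 0 by DESeq2), where 2.39% of 9488 genes were called. Slc38a1 was at 146.8, 187.7 and 205.6 CPM in GABAergic and at 150.1, 196.9 and 206.1 CPM in glutamatergic neurons of the same libraries. The values lay close together within each library, and the log2 difference of 0.03 had a 95% interval from -0.41 to 0.46. Abat differed by 0.23 (-0.20 to 0.66) and Slc1a2 by 0.48 (-0.21 to 1.16). For Slc6a11, on 5 UMIs in glutamatergic neurons, the interval from -1.70 to 1.73 leaves large differences undetected at this depth.

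GABAergic neurons with a Pnoc UMI (458 cells) were set against those without (1667 cells), which can still express Pnoc and were shallower, with a median of 3116 against 5085 UMIs. Again 0 of 6 tested genes were called by edgeR, 0 at an unadjusted p under 0.05 and 0 by DESeq2, where 2.55% of 9687 genes were called. Slc1a2 was at 65.0, 86.2, 120.3 and 112 CPM with and at 64.7, 54.1, 104.6 and 110.7 CPM without a Pnoc UMI. It was higher with Pnoc in all 4 libraries, but the groups overlapped and the log2 difference was 0.21 (95% interval -0.05 to 0.47, adjusted p = 0.584). Glul was lower with Pnoc in all 4 libraries by -0.24 (interval -0.54 to 0.07, adjusted p = 0.598). Abat differed by -0.03 (-0.22 to 0.16) and Slc38a1 by 0.08 (-0.10 to 0.26).

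The genes with the most similar pattern were found by Pearson's r of log2(CPM + 1) over 23 sums of a class in a library, among 11437 genes with at least 50 UMIs, and are given as a description, since sums of a class share its cells and depth and sums of a library share its batch. For Slc1a2 they were Ramp1 (r = 0.903), Aldoc (0.894) and Chd9 (0.886), and for Slc1a3 Timp4 (0.916), Kmt2c (0.915) and Abhd3 (0.904). Slc6a11 was closest to Trpm3 (0.906), Gm9925 (0.889) and the transcription factor gene Sox9 (0.881). Zfp36l1 (0.966) and Mfge8 (0.925) were close to Slc38a3. Glul was closest to Sepp1 (0.926), Arap2 (0.895) and Malat1 (0.888). Slc38a1 paired with Necap1 (0.917), Ric3 (0.914) and Hook1 (0.905), and Abat with Ptges2 (0.963), Dnal1 (0.963) and Tmem70 (0.96). Slc1a1 had the weakest likeness, to Tacc2 (0.838), Igfbp3 (0.824) and Zfp180 (0.82). Among the 8 genes themselves Slc1a2 and Slc1a3 had r = 0.769 and Slc1a2 and Slc1a1 had r = -0.393.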

How the data were processed

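The 4 tables deposited by the authors hold raw UMI counts per gene and barcode, whole numbers without normalization. The submitters' processing notes name bcl2fastq 2.18.0.12, STAR 2.4.2a, Picard 2.2.4, mm10 and GRCm38; the annotation, the strand counted and how barcodes were chosen are not given in the sources used here. Every listed row named a gene.

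Barcodes with at least 400 genes and at most 10% mitochondrial UMIs were kept, and 58 of 4239 (1.37%) were removed as doublets by Scrublet per library (scanpy 1.11.5, expected rate 0.05). A glial or vascular cell needed 3 UMIs from 2 of its class's markers and more than any other class. A neuron needed 6 UMIs from 3 neuron markers and 5 times the UMIs of every glial class. Transmitter classes needed 2 UMIs, subtypes 2 and the highest sum. Rprm and Cacng4 were left out of the OPC gate because many neurons had their UMIs. Thresholds were set from markers alone. Counts were added up per class and library wherever 10 or more cells were present, and the sums were fitted in edgeR 4.0.16 (R 4.3.3) after TMM scaling and filterByExpr. The quasi-likelihood F test was adjusted over all genes tested by Benjamini-Hochberg and called at 0.05, and library entered as a block, because classes of a library come from 1 pool of mice. Deviations of sums from their class mean correlated at 0.087 within and -0.0288 between libraries. Folds on the means are ratios of mean CPM; log2 fold changes are fitted, with SE as the change over the square root of F. A single value over 4 libraries cannot reach an exact sign-flip permutation p below 0.125, so none is printed. Named besides the 8 genes were up to 4 called pathway genes per group by size of change and the 3 nearest genes by correlation; 4430402I18Rik, Gm13872, check genes, and untested or second-class values of pathway genes were named after their values were seen. The 8 genes, lists and tests were chosen with earlier results of these data known. On simulated counts the fits were tested with 200 changed genes. DESeq2 1.42.0 and other settings were alternatives. Promoters were matched by symbol. Values of some genes are not reported here.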

Additional observations from a re-analysis of the deposited data

Results flagged for a closer look

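Among 73 sets of 4 library values searched, 10 had a library far from the other 3. The nominal chance rate of the rule, about 1 in 20 sets (3.65), does not apply to them. A set with UMIs in a single library is always flagged, and some sets share the same cells. In 9 of the 10 the library was the single one with any UMI. Slc1a3 in vascular cells was at 132.5 CPM in library 1, from 7 UMIs, and 0 elsewhere. Abat in vascular cells was at 18.93 CPM in library 1, from 1 UMI. Slc6a11 was at 13.39 CPM in the Klk6 Anln and 4.672 CPM in the Opalin Il33 oligodendrocytes of a single library, from 1 UMI each. Slc38a3 was at 2.456 CPM in oligodendrocytes and 6.217 CPM in Klk6 Anln oligodendrocytes of a single library, from 1 UMI, and at 1.334 CPM in neurons of library 3, 1.419 CPM in GABAergic neurons and 1.886 CPM in those without a Pnoc UMI, from 2 UMIs. The remaining set was Slc38a1 in GABAergic neurons with a Pnoc UMI, at 142.4 CPM in library 1 against 205.3, 209.1 and 206.1 CPM in the others.

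The 5642 barcodes with under 400 genes entered no comparison, and all 8 genes had UMIs there. Slc1a2 averaged 1574 CPM over libraries in them against 337.5 CPM in kept cells, Slc1a3 1187 against 229.3 CPM and Slc6a11 141.3 against 36.3 CPM. Glul averaged 787.7 against 292.3 CPM and Slc38a3 54.3 against 14.6 CPM. The other genes were lower there than in kept cells: Slc1a1 at 24.74 against 40.9 CPM, Slc38a1 at 109.2 against 151.3 CPM and Abat at 160.2 against 177.3 CPM. These barcodes held 30% of all Slc1a2 UMIs and 32.1% of all Slc1a3 UMIs.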

How the results depend on the processing

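Of the log2 differences of single genes under other settings, 805 kept direction and side of the threshold, 16 passed where the reported value did not, 30 lost the call and 18 changed sign, none of the 18 from a reported call. The cause was not tested. Without the replicate block (library as a term), called genes fell to 135 between GABAergic and glutamatergic neurons (from 227), 156 between the oligodendrocyte kinds (from 314), 32 for Pnoc (from 247) and 894 across subtypes (from 1419). Across subtypes 1 of the 8 genes instead of 3 was then called, as with the stricter gate (1), which covered fewer subtypes. Slc6a11 between GABAergic and glutamatergic neurons was -0.000524 without the block. DESeq2 called 72, 141 and 69 genes in the first 3 of these comparisons, and a 5% mitochondrial limit 134, 197 and 160. That limit called 1592 genes for astrocytes minus neurons, 1207 minus oligodendrocytes and 736 minus OPC, and 1730 for oligodendrocytes minus neurons. With no filter on low counts more genes were tested, and 5988, 3827, 7747, 3970 and 3077 were called for astrocytes minus neurons, astrocytes minus oligodendrocytes, oligodendrocytes minus neurons, OPC minus neurons and oligodendrocytes minus OPC. A minimum of 800 genes gave 552 for astrocytes minus OPC and 4628 for oligodendrocytes minus neurons.

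Leaving out 1 library in turn gave 154 to 167 called genes for Pnoc. Between GABAergic and glutamatergic neurons it gave 95 to 149, against 227 with all usable libraries. Library 3, with 7 glutamatergic cells, was not in that fit. Ranges over libraries that crossed 0 were, for Pnoc, Abat -0.103 to 0.0294, Slc1a1 -0.10 to 0.36 and Slc6a11 -0.22 to 0.28, and for GABAergic minus glutamatergic neurons Slc38a1 -0.00603 to 0.104 and Slc6a11 -0.21 to 0.10, and Slc38a1 in astrocytes minus OPC -0.15 to 1.60. Signs also turned with a minimum of 800 genes for Abat in astrocytes minus neurons (-0.20), Glul (-0.24) and Slc6a11 (-0.0433) in OPC minus neurons and Slc38a3 in astrocytes minus OPC (-0.0134), with no filter for Abat in astrocytes minus neurons (-0.00459) and Slc6a11 for Pnoc (-0.00658), at a 5% mitochondrial limit for Slc38a1 in GABAergic minus glutamatergic (-0.0861) and Slc38a3 in oligodendrocytes minus neurons (-0.56), and among cells of 2000 to 8000 UMIs for Slc1a1 and Pnoc (-0.0191). At 1000 UMIs per cell the shares with a UMI were 98.6% for Slc1a2 in astrocytes, 7.96% in neurons, 20.9% for Slc1a1 in OPC, 53.9% for Glul in oligodendrocytes and 16.0% for Slc38a1 in neurons.

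The 200-gene minimum was chosen after seeing the data. The stricter gate left too few libraries for glutamatergic, Lhx8 Rorb, Six3 and Slc17a8 neurons, and the 5% mitochondrial limit too few for Lhx8 Rorb neurons. DESeq2's test across subtypes was not run. Depth limits Slc38a1, Slc6a11 and Abat in OPC, with 5 to 15 UMIs, and Slc1a1 in oligodendrocytes, with 24.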
